A study of Saccharomyces cerevisiae with 8 samples.

Results

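The comparison described here sets 1 array labelled mre11delta against 1 array labelled wild type, both made from yeast cells 4 h after their move to sporulation medium. These are 2 of the 8 arrays of the series, chosen by strain and time alone. The series holds diploid Saccharomyces cerevisiae of the SK1 background, which sporulates fast and in step, in 4 strains (wild type, mre11delta, rad50delta and spo11Y135F), each at 0 h and at 4 h with 1 array per strain and time. The wild type strain is MJL1720 and the mre11delta strain is YMD1599. All cells were grown in a presporulation medium with acetate and then starved in sporulation medium. The labels call the cells at 0 h premeiotic and those at 4 h prophase cells. Whether each strain is a single isolate was not stated in the labels. The arrays are Affymetrix YG-S98, hybridised with labelled mRNA, and the values are signals on a linear scale. The RNA of wild type at 4 h was extracted with glass beads and RNeasy columns, as was that of both rad50delta and both spo11Y135F arrays. The RNA of mre11delta at 4 h was extracted with Trizol, as was that of both 0 h arrays of wild type and mre11delta. Strain and extraction method therefore cannot be told apart in any 4 h comparison with mre11delta below. With 1 array a side there is no replicate error, no test and no p-value, and every difference is a description of these 2 arrays.

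Mre11 forms a complex with Rad50 and Xrs2. In budding yeast meiosis this complex is needed both for Spo11 to cut chromosomes and for the ends to be trimmed afterwards, so mutants that lack Mre11 form no meiotic double-strand breaks. Meiotic genes are switched on in waves. The regulator Ime1 and the kinase Ime2 start the early wave, which holds the genes of the chromosome axis, of break formation and of strand exchange. The transcription factor Ndt80 switches on the middle wave near the end of prophase, with the genes of the meiotic divisions and of the spore membrane and wall. Unrepaired breaks hold Ndt80 back through a checkpoint.

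The mutated gene did not separate the arrays. The MRE11 signal at 4 h was 147.7 in wild type and 108.0 in mre11delta, and at 0 h it was 120.5 and 84.0. On the other 4 arrays it lay between 45.0 and 192.4, so both mre11delta values were inside the range of strains that carry the gene. The place of the MRE11 probes relative to the deletion was not stated either, so the name mre11delta rests on the label. RAD50, by contrast, had a signal of 0.6 and 3.4 on the rad50delta arrays and of 88.4 to 758.2 on the other 6. URA3, a uracil synthesis gene often used as a marker in strain building, gave 496.2 at 0 h and 14.8 at 4 h on the 2 arrays labelled wild type, and 486.2 and 273.0 on those labelled mre11delta. A separate set of control probes for URA3 gave 1009.4 and 19.2 for wild type and 896.3 and 405.7 for mre11delta. The wild type arrays thus differed in this marker between the times by more than the mre11delta arrays did. Of the neighbour genes of MRE11, UBP8, a histone deubiquitinase, gave 46.1 in wild type and 80.5 in mre11delta at 4 h. MRPL44, a mitochondrial ribosomal protein, gave 82.8 and 374.7. At 0 h UBP8 gave 110.8 and 95.6, and MRPL44 1126.3 and 1037.2. HIS4, a histidine synthesis gene beside a recombination hot spot that is often modified in SK1 strains, gave 158.0 and 3082.6 at 4 h. At 0 h HIS4 gave 2581.2 and 3049.0, so MRPL44 and HIS4 differed far less between the strains at 0 h than at 4 h.

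The 2 arrays also differed in overall brightness. The median signal over all probe sets was 97.3 in wild type and 196.4 in mre11delta, the lowest and the highest of the 8 arrays. The bacterial spike controls averaged 1442 and 1399. Signals were compared as log2 of the signal plus 7. The median gene was 0.94 higher in mre11delta on that scale, so each difference is given relative to the median gene unless it is called as deposited. A relative difference of 0 then still stands for a signal plus 7 about 1.92 times as high in mre11delta, and a difference past -1 for a signal that was lower there as deposited too. A gene was kept where its mean signal over the 8 arrays was at least 21, which held for 5475 of 5656 genes. The ratio of 3' to 5' signal of actin, a sign of RNA quality, was 1.69 in wild type and 1.43 in mre11delta, and that of SPT15 was 3.23 and 2.03. The part of extraction, brightness and RNA quality in the differences below was not tested. In bulk RNA, fewer cells that express a gene and less RNA of that gene per cell cannot be told apart either.

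**Figure D1:**
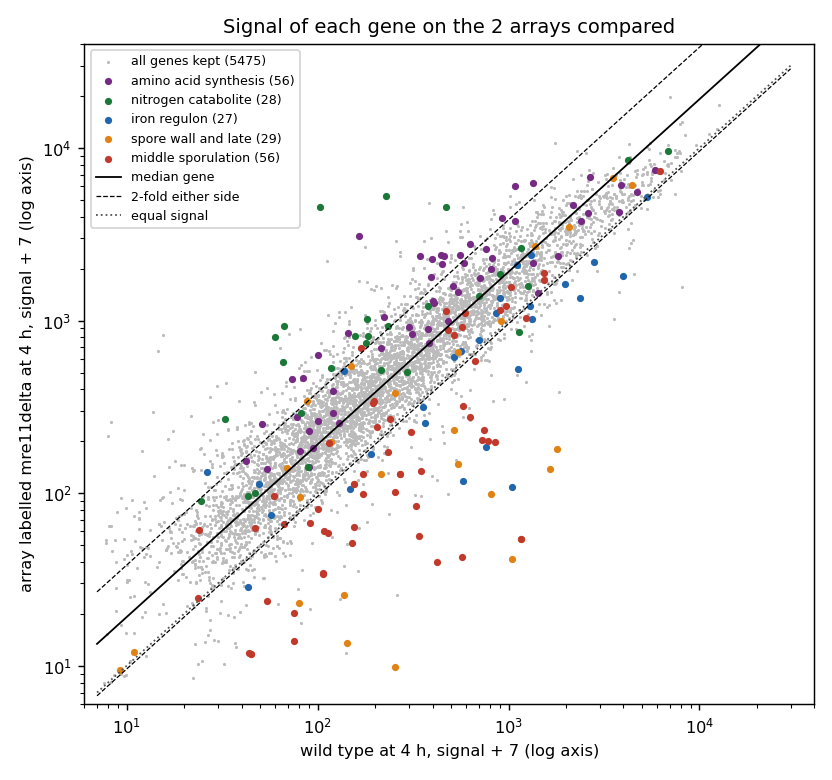
Signal of 5475 genes in wild type (x axis) and on the array labelled mre11delta (y axis) at 4 h, as signal plus 7 on log axes, with 5 gene lists in colour. The solid line is the median gene, the dashed lines are 2-fold either side of it and the dotted line is equal signal; 34 of 56 middle and 15 of 29 spore wall genes lie below the lower dashed line, and 13 of 28 nitrogen genes, MEP2 among them, lie above the upper one.

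Relative to the median gene, 425 genes (7.76%) were at least 2-fold higher in mre11delta and 325 (5.94%) were at least 2-fold lower. At least 4-fold higher were 56 genes (1.02%), and 82 (1.5%) were at least 4-fold lower. As deposited the split was 2545 genes (46.5%) higher and 85 (1.55%) lower, and scaled on the spike controls it was 2680 and 83. Of the 325 genes lower, 233 had their lowest signal of the 4 strains at 4 h in mre11delta as deposited, against 267 of all 5475 genes. Of the 425 genes higher, 348 had their highest signal of the 4 strains there, against 3120 of all 5475, and 300 had their lowest in wild type, against 3010. The choice of the genes fixes part of these counts. For scale, the 0 h arrays of the same strains, both extracted with Trizol, differed past 2-fold in 134 genes (2.45%). The standard deviation of the relative differences over genes was 0.36 at 0 h and 0.78 at 4 h.

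Many middle and late sporulation genes were low relative to the median gene on the array labelled mre11delta. Of 56 middle genes 34 were lower past 2-fold, against 5.94% of all genes, 22 of them past 4-fold, and 1 was higher. The median difference was -1.39 relative to the median gene and -0.45 as deposited. Of 29 spore wall and late genes, 4 of which are also in the middle list, 15 were lower, 13 of them past 4-fold, and 1 was higher, with a median of -1.41 and -0.47 as deposited. Over the genes of that list with a signal of at least 21 on both arrays the median was -0.75. Over the 81 genes of both lists 32 were lower past 4-fold, of 82 such genes on the whole array. Both lists were level at 0 h, with medians of -0.02 and -0.18. Past 2-fold above the strain's own 0 h signal as deposited were 42 of the 56 middle genes in wild type and 40 in mre11delta. For the spore wall list they were 20 and 17 of 29, and for all 5475 genes 848 and 2223. The summed 4 h signal of the middle list was 27922 in wild type and 26691 in mre11delta. That of the spore wall list was 22256 and 23458.

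Regulators of the middle wave and of meiotic entry differed to unequal degrees. NDT80, the activator of the wave, had a signal of 226.2 in wild type and 165.3 in mre11delta at 4 h (relative difference -1.37), up from 49.2 and 54.4 at 0 h. On the rad50delta and spo11Y135F arrays it reached 936.3 and 1688.9. SUM1, the repressor that sits on middle promoters until Ndt80 replaces it, gave 145.6 and 323.6 (0.18), and its partner HST1 gave 1532.0 and 1871.9 (-0.65). IME1, the master activator of entry, was at 7616.3 and 8808.3 (-0.73), and IME2, the kinase that works with it, at 1820.9 and 1792.9 (-0.96). Both had been induced from 698.9 and 513.9 for IME1 and from 22.4 and 16.9 for IME2 at 0 h. RME1, a repressor of IME1 in haploid cells, gave 86.9 and 218.4 (0.33).

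Genes of the prospore membrane, the new envelope laid around each haploid nucleus, showed the deficit to differing degrees. SPS2, which helps to organise the spore wall, gave 562.2 in wild type and 35.8 in mre11delta (-4.67). SPO19, a membrane anchored sporulation protein, gave 417.7 and 32.7 (-4.36), and SMA1, which is needed for prospore membrane growth, gave 68.1 and 7.0, at least 3.24-fold lower against the floor of 21 as deposited. The septin genes of sporulation followed, with SPR3 at 330.9 and 49.5 (-3.52) and SPR28 at 320.7 and 77.6 (-2.89). In contrast, CDC3 and CDC10, septins that vegetative cells also use, differed by -0.70 and -0.61. SSP1 of the leading edge coat gave 247.7 and 94.3 (-2.27), while its partners ADY3 and DON1 gave 1224.9 and 1030.5 (-1.19) and 660.2 and 572.4 (-1.14). SPO20, the sporulation t-SNARE, gave 148.8 and 56.8 (-2.23), and SPO21 of the spindle pole outer plaque 166.4 and 91.9 (-1.75). MPC54, another subunit of that plaque, gave 509.5 and 818.6 (-0.26), so members of 1 structure did not all differ alike.

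Kinases and division genes of the middle wave gave unequal differences. SPS1, a kinase of spore wall formation, gave 144.8 in wild type and 44.3 in mre11delta (-2.50), and SMK1, the sporulation MAP kinase, gave 68.1 and 13.3, at least 3.24-fold lower as deposited. CDC5, the polo kinase that drives exit from prophase, gave 618.9 and 268.1 (-2.12). MAM1, a monopolin subunit that makes sister centromeres face 1 pole, gave 718.5 and 195.9 (-2.78). The B-type cyclins did not share this difference. CLB1 gave 40.0 and 55.7 (-0.52), CLB4 gave 231.9 and 263.7 (-0.76) and CLB5 gave 1029.4 and 1550.6 (-0.35). CLB3 was the 1 middle gene higher past 2-fold, at 160.9 and 685.9 (1.11). AMA1, the meiotic activator of the anaphase promoting complex, gave 188.9 and 324.6 (-0.18), near the median gene.

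Genes of the spore wall list included the lowest values of the comparison. RRT5, a gene of sporulating cells with an unknown role, gave 1034.2 in wild type and 34.8 in mre11delta (-5.58), and SPS4, of unknown role too, gave 1158.0 and 47.4 (-5.36). LDS1 and LDS2, proteins of lipid droplets in spores, gave 1645.2 and 130.3 (-4.53) and 1793.3 and 173.5 (-4.26). SPR2, a putative spore wall protein, gave 247.2 and 2.9, at least 11.8-fold lower as deposited. The chitin deacetylases that make the chitosan layer, CDA2 and CDA1, gave 805.2 and 91.6 (-3.98) and 539.6 and 141.4 (-2.82). DTR1, which exports the dityrosine precursor bisformyl dityrosine, gave 512.4 and 226.8 (-2.09), while DIT1, which makes that precursor, gave 73.7 and 87.7 (-0.71). The sporulation glucan enzymes GAS4 and CRR1 gave 735.0 and 225.9 (-2.61) and 302.7 and 217.9 (-1.40). CHS3, the chitin synthase that vegetative cells use too, gave 538.5 and 653.0 (-0.66). Several members of this list that starving cells also express, such as GSC2 at 2062.7 and 3484.6 (-0.18) and FMP45 at 3514.8 and 6659.7 (-0.02), lay at the median gene.

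Against the other mutants the separation was wider. Of the 56 middle genes 35 had their lowest 4 h signal in mre11delta, against 267 of all 5475, and 18 in wild type, against 3010. SPS1 gave 3471.4 in rad50delta and 6494.6 in spo11Y135F, SPR3 gave 2225.3 and 2630.2, and SPR2 gave 5805.7 and 6941.2. The median relative difference of the middle list from wild type was 2.07 for rad50delta and 2.77 for spo11Y135F. These 2 comparisons and that of mre11delta share the wild type array, so the signs are not independent of each other. All 32 middle, spore wall and late genes past 4-fold had a higher 4 h signal in rad50delta and in spo11Y135F than in wild type, as deposited. For 29 of the 32 the order from low to high was mre11delta, wild type, rad50delta and spo11Y135F, of which the first step follows from the choice of genes.

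**Figure D2:**
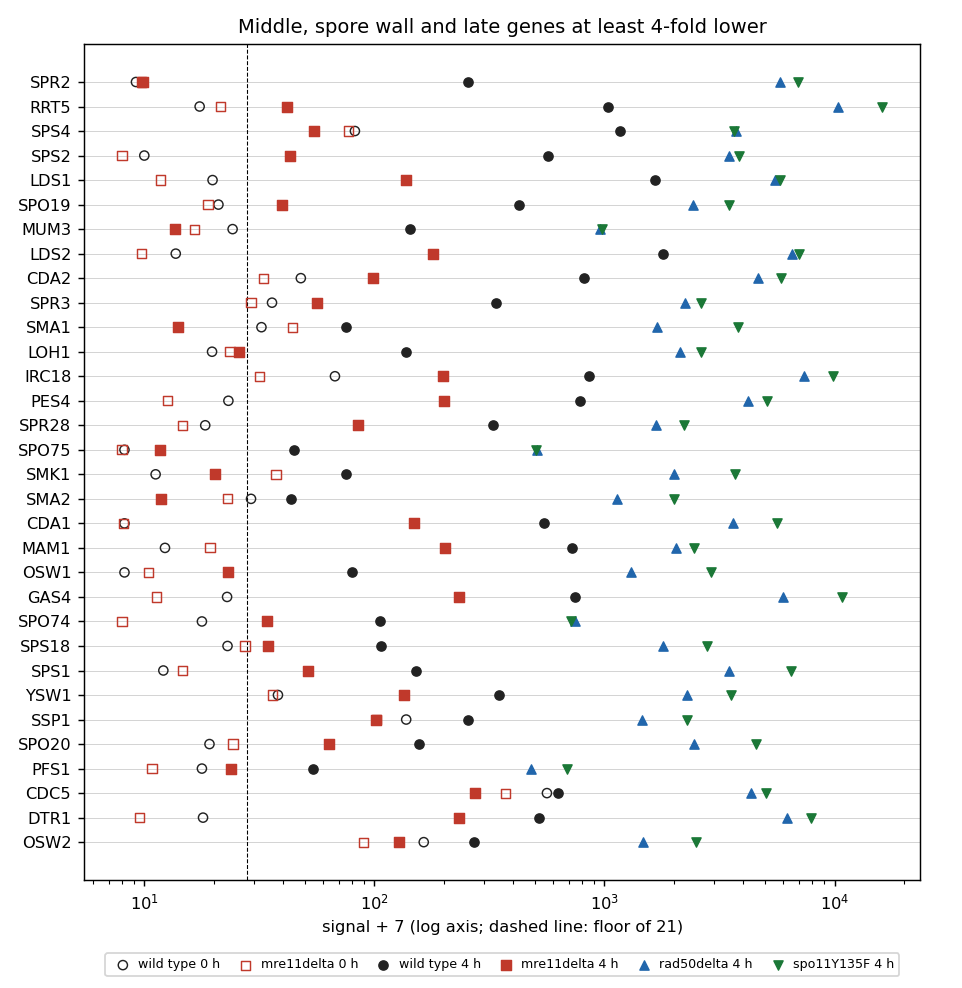
Signal plus 7 on a log axis of the 32 middle, spore wall and late genes at least 4-fold lower in mre11delta than in wild type at 4 h relative to the median gene, 1 row per gene and 1 symbol per array. Filled squares (mre11delta, 4 h) lie left of filled circles (wild type, 4 h) by the choice of the genes, and the rad50delta and spo11Y135F triangles lie right of both.

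Early meiotic genes were present at high level on both arrays. Of 16 genes of meiotic entry 0 were past 2-fold, with a median of -0.18 that turned to 0.75 as deposited and 0.80 on the spike scaling. The axis and synaptonemal complex list had 5 of 17 genes lower, against 5.94% of all genes, and 0 higher. Its median of -0.79 relative to the median gene turned to 0.14 as deposited and 0.19 on the spike scaling. GMC2, a synapsis protein, gave 1298.3 in wild type and 767.2 in mre11delta (-1.69), and CSM4, which moves chromosomes along the nuclear envelope, 624.6 and 391.2 (-1.60). NDJ1, its telomere partner, gave 750.3 and 646.6 (-1.15). ZIP1, the transverse filament of the complex, stood at 492.5 and 468.4 (-1.01), and its 0 h signals were 16.2 and 8.8. Of the axis proteins, HOP1 lay near the median gene at 822.2 and 1691.0 (0.10). RED1 at 589.7 and 661.2 (-0.77) and REC8, the meiotic cohesin, at 1990.7 and 2403.0 (-0.67) lay near the list median.

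Break formation genes gave 1 of 10 lower, against 5.94% of all genes. Their median of -0.37 turned to 0.57 as deposited and 0.61 on the spike scaling. SPO11, which cuts the DNA, gave 348.9 in wild type and 322.3 in mre11delta (-1.05), and MEI4, a partner in the cutting, gave 213.3 and 214.0 (-0.93). REC114 gave 373.8 and 591.2 (-0.29) and REC102 gave 1067.1 and 1499.1 (-0.45). All 4 were far above their 0 h signals, which ran from 1.0 to 13.4 on the same strains' arrays. In the Mre11 complex itself RAD50 gave 432.7 and 758.2 (-0.14) and XRS2 gave 85.9 and 120.9 (-0.48), so both partners lay nearer to the median gene than MRE11 (-1.37). SAE2, the nuclease partner of the complex, gave 10.1 and 23.2 and was not kept at the floor of 21. The kinase TEL1, which the complex recruits to breaks, gave 184.3 and 300.2 (-0.25).

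Of 27 strand exchange and crossover genes 3 were lower, against 5.94% of all genes, and 0 higher, against 7.76%. Their median of -0.32 turned to 0.61 as deposited and 0.66 on the spike scaling. MSH5, of the crossover-promoting MutS pair, gave 743.5 and 580.3 (-1.29), HOP2 gave 897.9 and 766.9 (-1.16) and RMI1 gave 376.4 and 344.1 (-1.06). DMC1, the meiotic recombinase, gave 3950.1 and 4851.1 (-0.64), and RAD52, the mediator of strand exchange, gave 1021.5 and 2456.3 (0.32). Of 17 meiotic checkpoint genes 1 was lower, the phosphatase GLC7 at 1022.1 and 888.9 (-1.14), and MEK1, the axis kinase that bars repair from the sister, gave 1184.8 and 1144.2 (-0.99). The damage sensors RAD24 and RAD17 gave 60.8 and 196.2 (0.65) and 167.7 and 275.8 (-0.24). In the DNA damage response list 2 of 20 genes were higher and 1 lower. The inducible ribonucleotide reductase RNR3 gave 22.7 and 158.9 (1.54), and 40.5 in mre11delta at 0 h, but its only probe set is shared with related genes and the value is uncertain. The other members of the 10 reductase genes were within 2-fold.

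**Figure D3:**
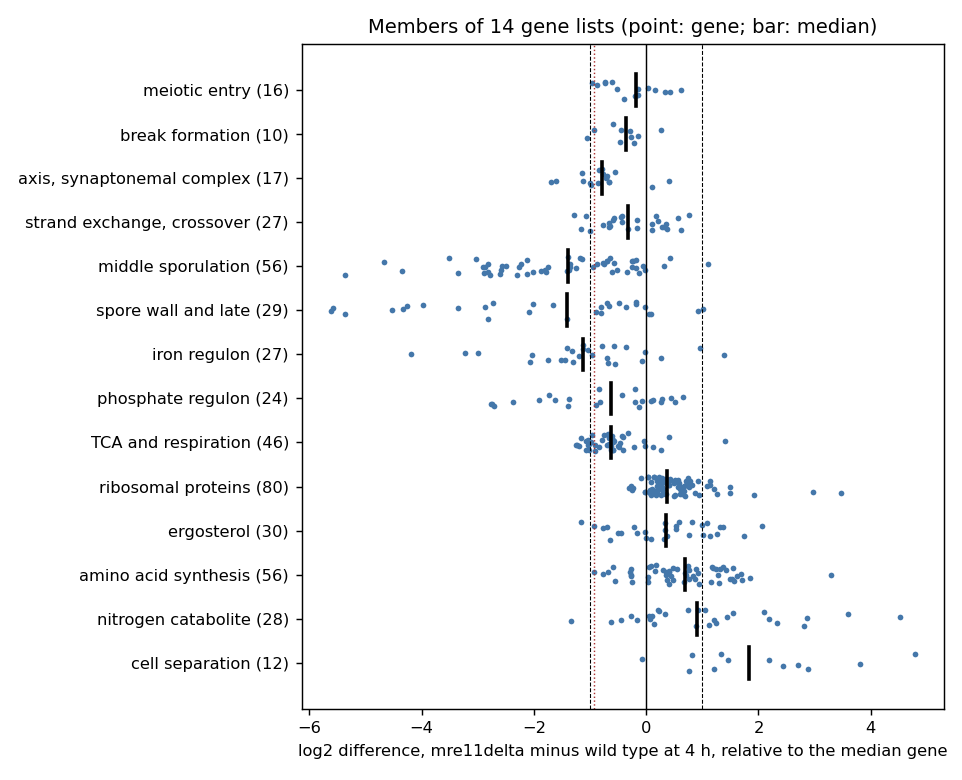
Difference between mre11delta and wild type at 4 h in log2(signal + 7), relative to the median gene, for the members of 14 gene lists (a point is a gene, a bar the list median, and the vertical lines mark 0, 2-fold either side and, dotted, equal signal as deposited). Middle, spore wall and iron genes have medians past -1, whereas the medians of the axis, phosphate and TCA lists lie right of the dotted line, where the signal as deposited was higher in mre11delta.

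Some genes of metal and phosphate uptake, chiefly of the iron regulon, were also low in mre11delta relative to the median gene. Of 27 iron regulon genes, targets of the iron sensing activator Aft1, 15 were lower past 2-fold, against 5.94% of all genes, and 1 higher, with a median of -1.13 relative to the median gene and -0.19 as deposited. FIT2, a cell wall mannoprotein that retains iron chelates, gave 1033.8 in wild type and 101.9 in mre11delta (-4.19). FET4, the low affinity iron transporter, gave 567.6 and 111.0 (-3.22), and TIS11, which degrades the mRNAs of iron-rich proteins, 758.6 and 177.3 (-2.99). At 0 h the same 3 genes gave 1084.9 and 815.1, 39.9 and 33.6, and 241.1 and 295.6, so the strains had begun close together. The siderophore transporter SIT1 gave 3990.2 and 1812.2 (-2.07). The high affinity uptake pair FET3 and FTR1 gave 553.6 and 655.3 (-0.70) and 853.6 and 1103.4 (-0.57), and so did not share the larger deficit. FRE2, a ferric reductase, was the 1 member higher, at 19.5 and 125.3, at least 5.97-fold as deposited.

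In the copper regulon, a list set up after its values were known, 4 of 9 genes were lower, against 5.94% of all genes, and 1 higher. The median of -0.32 turned to 0.61 as deposited and 0.66 on the spike scaling. CTR3, a high affinity copper transporter, gave 8132.8 and 1563.7 (-3.31), with 6600.0 and 7675.2 at 0 h. CTR1, the other such transporter, gave 617.6 and 303.7 (-1.94). CRS5, a metallothionein that binds surplus copper, stood the other way at 387.3 and 2991.1 (1.99). MAC1, the activator of the uptake genes, and CUP2, the activator of metallothioneins, gave differences of -0.14 and 0.35. ZPS1, a zinc-regulated wall protein, gave 4557.2 and 1853.0 (-2.23). The zinc regulon, however, had 2 of 16 genes lower, against the same 5.94%, and a median of 0.05.

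Of 24 phosphate regulon genes, which Pho4 activates when phosphate runs short, 9 were lower, against 5.94% of all genes, and 0 higher. Past 4-fold were 4 of them, against 1.5% of all genes. The median of -0.62 turned to 0.31 as deposited and 0.36 on the spike scaling. PHO84, the high affinity phosphate transporter, gave 3573.0 in wild type and 1007.8 in mre11delta (-2.76), from 80.3 and 71.8 at 0 h. PHO5, the secreted acid phosphatase, gave 523.0 and 148.3 (-2.71), and PHM6, a protein of unknown role, gave 415.1 and 112.0 (-2.76). PHO81, which inhibits the kinase that holds Pho4 back, gave 1306.3 and 660.2 (-1.91), while PHO4 itself gave 288.8 and 684.2 (0.29). Both strains had more of the transporter mRNA at 4 h than at 0 h, wild type the more so. The rad50delta and spo11Y135F arrays gave 6815.9 and 3888.2 for PHO84 at 4 h, above both. In these 2 strains PHO84 was already at 6218.3 and 7162.4 at 0 h.

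Genes for the use of poor nitrogen sources were higher in mre11delta. Of 28 genes under nitrogen catabolite repression 13 were higher past 2-fold, against 7.76% of all genes, 7 of them past 4-fold, and 1 was lower. The median was 0.90 relative to the median gene and 1.84 as deposited. MEP2, the high affinity ammonium transporter and sensor, gave 96.3 in wild type and 4563.9 in mre11delta (4.53), the largest excess among genes measured on both arrays. Its signal was 192.9 in rad50delta and 113.3 in spo11Y135F at 4 h and between 19.1 and 20.8 in wild type and mre11delta at 0 h. DAL5, the allantoate permease, gave 220.1 and 5256.5 (3.60), and GAP1, the general amino acid permease, 466.2 and 4546.3 (2.33). The transcription factors of the system differed less, with the activator GAT1 at 226.6 and 920.5 (1.05), the repressor DAL80 at 109.9 and 521.4 (1.24) and the activator GLN3 at 36.4 and 89.2 (0.21).

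The allantoin genes lie side by side on chromosome IX, and all 6 members of that cluster are already counted in the nitrogen list above. In the cluster list, set up after its values were known, 5 of 6 were higher, 4 past 4-fold. The shares over all genes were 7.76% and 1.02%. DAL4, the allantoin permease, gave 59.8 and 925.6 (2.87), and DAL3, ureidoglycolate lyase, 52.8 and 793.6 (2.81). DAL1, allantoinase, gave 58.6 and 564.7 (2.19), DAL7, a malate synthase, 25.8 and 263.6 (2.11), and DAL2, allantoicase, 175.2 and 1011.4 (1.55). DCG1, the remaining gene, gave 17.6 and 82.7, at least 3.94-fold higher as deposited, but was not past 2-fold relative to the median gene (0.93). Against wild type at 4 h, 2 of the 6 genes were also higher past 2-fold in rad50delta, against 611 of all 5475. In spo11Y135F 4 were higher and 1 lower, against 1284 and 1033 of all 5475. DAL4 gave 362.3 in rad50delta and 1342.0 in spo11Y135F, and DAL3 gave 42.4 and 18.5. The cluster did not stand alone, since DAL5 and DAL80 lie on chromosomes X and XI. The arginine degrading enzymes CAR1 and CAR2, which arginine itself induces, were already high in wild type, at 6846.1 and 9568.4 (-0.45) and 4199.1 and 8480.7 (0.08). GDH2, which releases ammonium from glutamate, was the 1 member lower, at 1128.4 and 847.1 (-1.35). CHA1, the serine and threonine deaminase induced by its substrates, gave 7.6 and 662.4, at least 31.5-fold higher as deposited.

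Of 56 amino acid synthesis genes 18 were higher, against 7.76% of all genes, and 0 lower, with a median of 0.68 relative to the median gene and 1.62 as deposited. After HIS4, the largest was ARO8, an aromatic aminotransferase, with 337.1 in wild type and 2367.7 in mre11delta (1.85). HIS1 gave 93.9 and 620.6 (1.70), HIS7 66.9 and 449.3 (1.69) and HIS5 137.8 and 841.1 (1.61), all of them histidine synthesis enzymes. At 0 h these 4 genes gave 2266.4 and 2112.3, 1848.7 and 2103.0, 616.6 and 558.3, and 463.0 and 569.5, so that in mre11delta ARO8, HIS7 and HIS5 stayed within 2-fold of their 0 h signal and in wild type all 4 were lower at 4 h. LEU4, the first enzyme of leucine synthesis, gave 1079.3 and 6037.3 (1.54), and ARG4, argininosuccinate lyase, 1334.9 and 6250.8 (1.28). Some amino acid permeases went the other way, in a list set up after its values were known. The lowest were TAT1 at 473.3 and 91.5 (-3.22), BAP3 at 112.7 and 49.0 (-2.03) and GNP1 at 570.7 and 267.6 (-2.01). Others did not share this, such as AGP1 (-0.63), DIP5 (-0.59), HIP1 (0.09), TAT2 (0.11) and LYP1 (0.59). Of 23 permeases 8 were lower, against 5.94% of all genes, and 2 higher. The median of -0.32 turned to 0.62 as deposited and 0.67 on the spike scaling, and 15 of the 23 were higher in mre11delta as deposited.

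**Figure D4:**
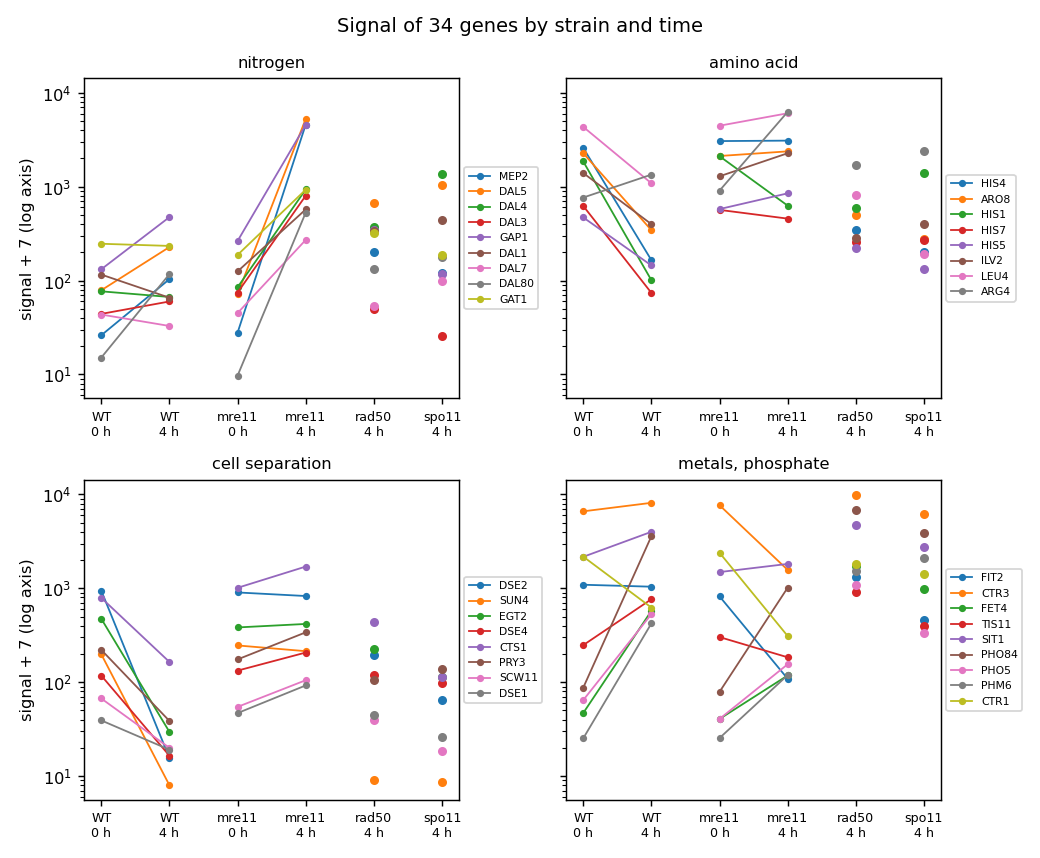
Signal plus 7 (log axis) of 34 genes in 4 groups, with lines from 0 h to 4 h for wild type and mre11delta and single points for rad50delta and spo11Y135F at 4 h. The cell separation genes lie lower at 4 h than at 0 h in wild type and near their 0 h signal in mre11delta, and MEP2, DAL5 and GAP1 lie at 4563.9, 5256.5 and 4546.3 in mre11delta at 4 h.

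Cell separation genes, whose products part daughter from mother cell after division, were higher in mre11delta, with a median of 1.83 relative to the median gene and 2.76 as deposited. The list was set up after its values were known, and 9 of 12 members were higher, against 7.76% of all genes, 6 of them past 4-fold, and 0 lower. DSE2, a daughter cell wall protein, gave 8.6 in wild type and 821.1 in mre11delta, at least 39.1-fold higher as deposited, with 937.0 and 896.8 at 0 h. SUN4, a septation glucanase, gave 1.0 and 207.1, at least 9.86-fold higher, with 191.6 and 239.4 at 0 h. EGT2, of septum breakdown, gave 22.6 and 410.5 (2.88), and the chitinase CTS1 gave 157.5 and 1697.6 (2.44). Over the 12 genes the summed signal in wild type was 4119 at 0 h and 556 at 4 h, and in mre11delta it was 3917 and 4969. It was 2026 in rad50delta and 995 in spo11Y135F at 4 h. In wild type 11 of the 12 were past 2-fold lower at 4 h than at 0 h as deposited, and in mre11delta 0 were, 10 staying within 2-fold. Over all 5475 genes 1702 were lower past 2-fold in wild type and 550 in mre11delta. The wild type arrays of the 2 times also differ in extraction.

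Markers of dividing cells gave a mixed picture beside these genes. Of 16 genes of the mitotic G2/M cluster 2 were higher, against 7.76% of all genes, and 3 lower, against 5.94%. Their median of -0.23 turned to 0.70 as deposited, 0.75 on the spike scaling and 0.04 under quantile normalization. The lower ones were CDC5 (-2.12), SPO12 at 166.1 and 121.7 (-1.37) and ASE1 at 159.3 and 150.9 (-1.01). CLB2, the main mitotic cyclin, gave 20.2 in wild type and 52.7 in mre11delta, and 55.5 and 73.3 at 0 h. At 4 h it was at least 2.51-fold higher as deposited but lay near the median gene (0.20). SWI5, an activator made at the same stage, gave 1.6 and 1.9 at 4 h and 70.6 and 35.2 at 0 h. CHS2, the septum chitin synthase, gave 4.0 and 66.9, at least 3.19-fold higher as deposited. The summed signal of the 16 genes was 1485 in wild type and 1690 in mre11delta at 4 h, and 2719 and 2016 at 0 h. CDC5, also described above with the middle wave, made up 618.9 and 268.1 of the 4 h sums. The part of cells outside meiosis in the differences was not tested. Of 21 haploid and mating type genes 1 was higher, the a-factor exporter STE6 at 49.5 and 212.3 (1.02), and 1 lower, the G protein subunit STE18 at 35.3 and 15.5, at least 1.68-fold as deposited, with a list median of -0.28 that turned to 0.65 as deposited and 0.70 on the spike scaling.

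Of 30 ergosterol genes 8 were higher, against 7.76% of all genes, and 1 lower, with a median of 0.35 relative to the median gene. ERG3, the sterol C5 desaturase, gave 354.4 in wild type and 2870.3 in mre11delta (2.06), HMG1, the main HMG-CoA reductase, 554.5 and 3597.2 (1.74), and ERG20, farnesyl pyrophosphate synthetase, 333.7 and 1616.4 (1.32). At 0 h ERG3 gave 4183.9 and 3467.7, close to the mre11delta value at 4 h. In the purine and one-carbon list, set up after its values were known, 4 of 22 were higher, against the same 7.76%, and 0 lower, among them SHM2, serine hydroxymethyltransferase, at 264.4 and 2492.8 (2.27) and ADE17 at 238.0 and 1604.4 (1.78). ACS2, the acetyl-CoA synthetase used on glucose, gave 367.2 and 2257.1 (1.66), and CYS3, of cysteine synthesis, gave 5.1 and 168.0, at least 8-fold higher as deposited.

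Ribosomal protein genes had 10 of 80 members higher (12.5%, against 7.76% of all genes) and 0 lower, with a median of 0.38 relative to the median gene. RPL37A gave 170.0 in wild type and 2661.1 in mre11delta (2.98), RPS22A gave 206.8 and 1541.7 (1.92), and RPL22B gave 6.8 and 287.1, at least 13.7-fold higher as deposited. At 0 h RPL37A gave 10598.1 and 10062.0, so both strains were below their 0 h signal at 4 h, wild type more so. On the rad50delta and spo11Y135F arrays RPL37A gave 2300.7 and 2527.0 at 4 h, close to mre11delta. The wild type array, the dimmest, had the lowest 4 h signal of the 4 strains for 78 of the 80 genes, against 3010 of all 5475. Only a shared probe set exists for 28 of them, which are uncertain. Of 81 ribosome biogenesis genes 12 were higher, against the same 7.76%, and 2 lower, against 5.94%, with a median of 0.03. NSR1, a nucleolar protein, gave 64.0 and 829.2 (2.62), and 988.3 and 1109.5 in the other mutants.

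Of 46 TCA cycle and respiration genes 10 were lower, against 5.94% of all genes, and 1 higher, with a median of -0.63 that turned to 0.30 as deposited and 0.35 on the spike scaling. As deposited 34 of the 46 had the higher signal in mre11delta. The 10 lower genes were 1.05- to 1.24-fold lower as deposited, as in CIT1, citrate synthase, at 5683.2 and 5187.2 (-1.07) and MDH1, malate dehydrogenase, at 6078.6 and 5207.7 (-1.16). CYC1, cytochrome c, was the 1 higher, at 215.5 and 1118.6 (1.40). JEN1, the lactate and pyruvate carrier, gave 4356.0 and 2792.6 (-1.58). Glucose kinase HXK2 gave 39.2 and 328.8 (1.92), with 4333.0 and 3565.5 at 0 h. Of 35 proteasome genes 1 was lower and 0 higher, and of 45 heat shock and stress genes 7 were higher and 5 lower. The shares over all genes were 7.76% higher and 5.94% lower.

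**Figure D5:**
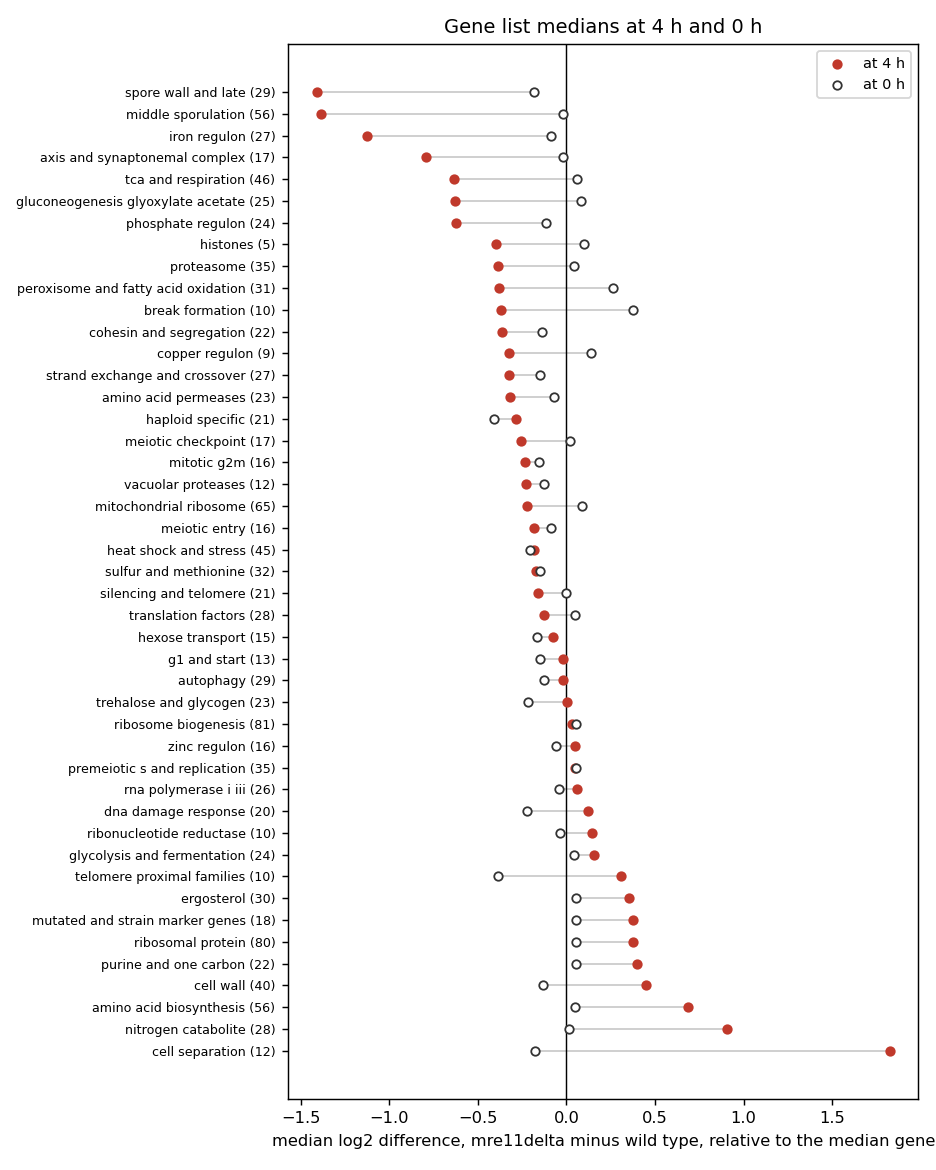
Median difference between mre11delta and wild type in log2(signal + 7), relative to the median gene of each comparison, for 45 gene lists with at least 5 genes kept, at 4 h (filled) and at 0 h (open), without the allantoin cluster, whose genes are in the nitrogen list. The medians run from -0.41 to 0.37 at 0 h, and at 4 h from -1.41 for spore wall genes to 1.83 for cell separation genes, with all but the 3 lowest lists at 4 h turning or staying positive as deposited.

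Outside the lists the named genes of the largest differences came from several pathways. SHH4, a relative of a succinate dehydrogenase subunit, gave 104.9 in wild type and 2218.1 in mre11delta (3.38). SOL4, a 6-phosphogluconolactonase, gave 377.2 and 4812.2 (2.71), and PIR1, a cell wall protein, 252.0 and 2891.9 (2.55), with 4279.3 and 3608.2 at 0 h. AQR1, which exports amino acids, gave 1.3 and 251.1, at least 12.0-fold higher as deposited. On the low side SUT1, a regulator of sterol uptake, gave 1820.6 and 378.6 (-3.18), and UBC11, a ubiquitin conjugating enzyme, gave 84.2 and 14.4, at least 4.01-fold lower as deposited.

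The genes past 2-fold were also read against each strain's own 0 h array, as deposited. Of the 425 higher genes 298 were at least 2-fold lower at 4 h than at 0 h in wild type, while in mre11delta 53 were and 207 stayed within 2-fold. In rad50delta 96 of the same genes were lower past 2-fold than at 0 h and in spo11Y135F 209. Over all 5475 genes the numbers lower were 1702 in wild type, 550 in mre11delta, 325 in rad50delta and 1436 in spo11Y135F. Of the 325 lower genes 147 were past 2-fold higher at 4 h than at 0 h in wild type, against 848 of all 5475. In mre11delta 119 of the 325 were, against 2223 of all 5475. In wild type the 0 h array was extracted with Trizol and the 4 h array with RNeasy, so that time and extraction cannot be told apart there, while each other strain kept 1 method. The choice of the genes also fixes part of the contrast between wild type and mre11delta.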

How the data were processed

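Polyadenylated RNA of 8 yeast cultures was measured on 1-colour arrays, with 3 microg of mRNA labelled per array per the labels' protocols. Each deposited value is an intensity, not log-transformed, which came from MAS5 per the submitters' processing notes. Not given in the sources used here were the MAS5 version, the scaling between arrays and the genome build. Of 9335 probe sets 6504 name 1 gene, and 1 set was used for each of 5656 genes, a gene-specific set before a shared one and then the brightest. Names came from the platform annotation, updated through RefSeq assembly R64. Values were compared as the difference of log2(signal + 7), minus the median over the 5475 genes whose mean signal was at least 21. A gene was called past 2-fold, a log2 difference of 1. Where 1 array was below 21, the fold is a lower bound against 21 as deposited. No test, p-value or SD between arrays exists with 1 array a group. Analyses used Python 3.11.15, numpy 2.4.6 and pandas 2.3.3, with 10 alternative settings.

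Genes were named by rule, which takes the 14 largest differences each way measured on both arrays, the 6 brightest each way with 1 array below 21, up to 4 members per list and the mutated and marker genes. Further list members were named for their role, after their values were seen. The lists were chosen with earlier results of these data known. The copper, zinc, purine, permease, cell separation and allantoin cluster lists were added after the values were seen, and 2 entries of the spore wall list that were old names of REC8 and CTT1 were removed, as was RPP1, an RNase P subunit, from the ribosomal protein list.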

Additional observations from a re-analysis of the deposited data

Results flagged for a closer look

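SPL2, a small protein that lowers low affinity phosphate uptake in phosphate starvation, stood on opposite sides of wild type at the 2 times. At 0 h its signal was 16.3 in wild type and 48.7 in mre11delta, a relative difference of 1.38. At 4 h it was 940.8 and 343.9, a relative difference of -2.37. The 0 h signal of wild type lies below the floor of 21. The difference between the times was not tested, since each strain has 1 array per time.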

How the results depend on the processing

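No paired analysis was possible because each group has 1 array and the labels carry no replicate numbers. The counts past 2-fold, 425 higher and 325 lower, became 2545 and 85 as deposited and 2680 and 83 on the spike controls, settings that move the median gene by 0.94 and 0.98. Under the other 8 settings they ran from 293 to 502 higher and from 230 to 369 lower. ALD6, an aldehyde dehydrogenase, turned from 1.30 to -0.27 when its second probe set was averaged in, but its main set read 12.4 in wild type and the second set 16.4 and 5.2, all below the floor of 21. Of 144 named genes past 2-fold, 113 were still past it in the same direction as deposited and 122 with a pseudocount of 32. The spore wall median went from -1.41 to -0.75 over genes with at least 21 on both arrays, a setting that leaves out genes below the floor in mre11delta. Of 283 genes with several probe sets 125 had sets on opposite sides of the median gene. Among them 47 genes were past 2-fold, and 16 of these had sets of opposite sign. DAL5, given above at 3.60, had other sets at 3.59 and 0.23. The number of arrays limits the precision of every value.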

Other observations

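Probe sets without a gene name in the platform annotation leaned lower in mre11delta. Of 2443 such sets 1279 were above the floor, and 215 of these (16.8%) were lower past 2-fold and 60 (4.69%) higher, with a median of -0.34 relative to the median gene that is positive as deposited. Among 280 sets above the floor that name several genes, 25 (8.93%) were higher and 9 (3.21%) lower.

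DDR48, a stress protein, gave unlike values from its 2 probe sets at 4 h. The gene-specific set read 74.4 in wild type and 16.3 in mre11delta, and a shared set read 952.5 and 1819.0.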
